A study of Mus musculus with 16 samples.

Results

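The genes described here are the G1 cyclins and the inhibitors of cyclin-dependent kinases (CDKs). They are 10 genes taken by name, the D-type cyclins Ccnd1, Ccnd2 and Ccnd3, the E-type cyclins Ccne1 and Ccne2, the Cip/Kip inhibitors Cdkn1a and Cdkn1b, and the INK4 inhibitors Cdkn2a, Cdkn2b and Cdkn2c. All 10 were found by Ensembl identifier among the 54838 genes of the count file, and all 10 passed the filter on low counts that kept 18214 genes. The tissue was adrenal gland at an age of 4 weeks, and the mice had a mixed genetic background. Each of the 16 libraries came from another mouse, per the design text. There were 4 groups of 4: female control, female Rspo1 GOF, male control and male Rspo1 GOF, where GOF is a gain of function of Rspo1, which encodes a secreted enhancer of the WNT pathway. The labels call the comparison genotype control and give neither the build of the GOF allele nor the cells that carry it.

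D-type cyclins bind CDK4 and CDK6 in G1 and start the phosphorylation of the retinoblastoma protein, which frees E2F transcription factors. E-type cyclins then activate CDK2 at the entry into S phase, and are themselves among the genes that E2F factors induce. INK4 proteins block CDK4 and CDK6, while Cip/Kip proteins bind CDK2 complexes, and in the adrenal cortex they help to set how fast steroid-producing cells are renewed.

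Library totals ran from 31275146 to 43003968 counts. Rspo1 itself was at 3.19 to 40.5 CPM (counts per 1e6 counts, scaled by TMM factors) in female controls and 353 to 532 in female GOF, and at 19.4 to 48.2 in male controls and 534 to 971 in male GOF. The tissue label was checked with 8 markers of the steroid-producing cortex, whose summed level was 32520 to 50390 CPM over all libraries. Liver markers reached 9031 CPM in 1 male control (replicate 2), against at most 768 CPM in every other library. Kidney tubule markers reached 1056 CPM in female control replicate 1 and 179 CPM in replicate 3, against at most 2.57 CPM in every other library. Where leaving out female control 1 and male control 2, or these and female control 3, ends a call of 1 of the 10 genes, the value without them is given beside it.

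Promoter sequences were looked up because 5 of the 10 genes were called higher in female GOF, beside 19% of all tested genes. RefSeq windows of GRCm38.p6, from 250 bases before to 50 bases after a transcript start, were at hand for 7 of the 10 genes, in 11 windows; Ccnd1, Ccnd2 and Ccne2 had none. The E2F words TTTCCCGC, TTTCGCGC, TTTGCCGC and TTTGGCGC were searched on both strands and were held by 2.26% of 32817 promoters; among the genes here, 1 window of Cdkn2a held TTTCCCGC, starting 99 bases before the transcript start. The TCF/LEF words CTTTG followed by AA, AT, TA or TT were held by 16.9% of promoters; 1 window of Ccnd3 held CTTTGTA, starting at base 44 of the transcript. The words of the 2 sets did not overlap in these windows, and a match is a description of letters, not of binding. The 250 bases before the start are shown for the 2 starts of Cdkn2a, which the counts add together, for Ccnd3 and for Ccne1, which changed most among the genes with a window. They are written 5′ to 3′ on the gene's strand, with the E2F word in capitals.
Cdkn2a, upstream start (minus strand, chr4:89294620-89294869): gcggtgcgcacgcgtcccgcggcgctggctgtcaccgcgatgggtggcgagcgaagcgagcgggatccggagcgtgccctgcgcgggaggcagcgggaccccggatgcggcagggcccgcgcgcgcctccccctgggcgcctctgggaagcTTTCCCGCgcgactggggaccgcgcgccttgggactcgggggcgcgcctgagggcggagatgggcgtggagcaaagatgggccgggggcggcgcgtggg
Cdkn2a, downstream start (minus strand, chr4:89282193-89282442): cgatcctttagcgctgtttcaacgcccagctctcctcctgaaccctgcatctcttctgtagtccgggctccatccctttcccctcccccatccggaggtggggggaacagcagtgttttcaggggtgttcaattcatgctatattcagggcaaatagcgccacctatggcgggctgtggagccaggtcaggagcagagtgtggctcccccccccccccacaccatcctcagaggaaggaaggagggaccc
Ccnd3, upstream start (plus strand, chr17:47504801-47505050): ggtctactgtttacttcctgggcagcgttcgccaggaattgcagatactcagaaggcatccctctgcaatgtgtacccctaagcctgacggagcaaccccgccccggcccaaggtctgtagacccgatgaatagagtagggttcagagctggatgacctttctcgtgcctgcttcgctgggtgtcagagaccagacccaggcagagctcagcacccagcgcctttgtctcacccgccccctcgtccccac
Ccne1 (minus strand, chr7:38107491-38107740): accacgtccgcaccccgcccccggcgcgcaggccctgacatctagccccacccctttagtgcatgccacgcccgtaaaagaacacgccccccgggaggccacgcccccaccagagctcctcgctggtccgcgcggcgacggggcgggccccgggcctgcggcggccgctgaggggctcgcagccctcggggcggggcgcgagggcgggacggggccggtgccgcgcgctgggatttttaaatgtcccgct

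Levels were compared between genes on the deposited FPKM scale (fragments per kilobase of gene length and 1e6 fragments), which is per length. Ccnd3 and Ccnd2 were the most abundant of the 10 in every group. In female controls Ccnd3 had 256 ± 25.4 FPKM and Ccnd2 170 ± 11.6 (SD, n = 4), and the ranges of the 4 libraries did not overlap. In male controls the order was the other way, with Ccnd2 at 233 ± 32.8 FPKM and Ccnd3 at 190.1 ± 13.2, but their ranges overlapped. Cdkn1b, Ccnd1, Cdkn2c and Cdkn1a followed, in an order that varied, in both control groups with means between 18.3 and 33.0 FPKM, each overlapping its neighbour in the order. Ccne1, Ccne2, Cdkn2a and Cdkn2b had the lowest means, from 2.35 to 6.28 FPKM in controls. In female GOF Ccnd3 reached 636 ± 68.2 FPKM and Ccnd2 94.7 ± 12.3. In that group Cdkn2c came next at 50.2 ± 13.8 FPKM, with a range overlapping that of Cdkn1a. In male GOF Ccne1 had the lowest mean of all 10, 2.11 ± 0.545 FPKM, with a range overlapping that of Ccne2.

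**Figure D1:**
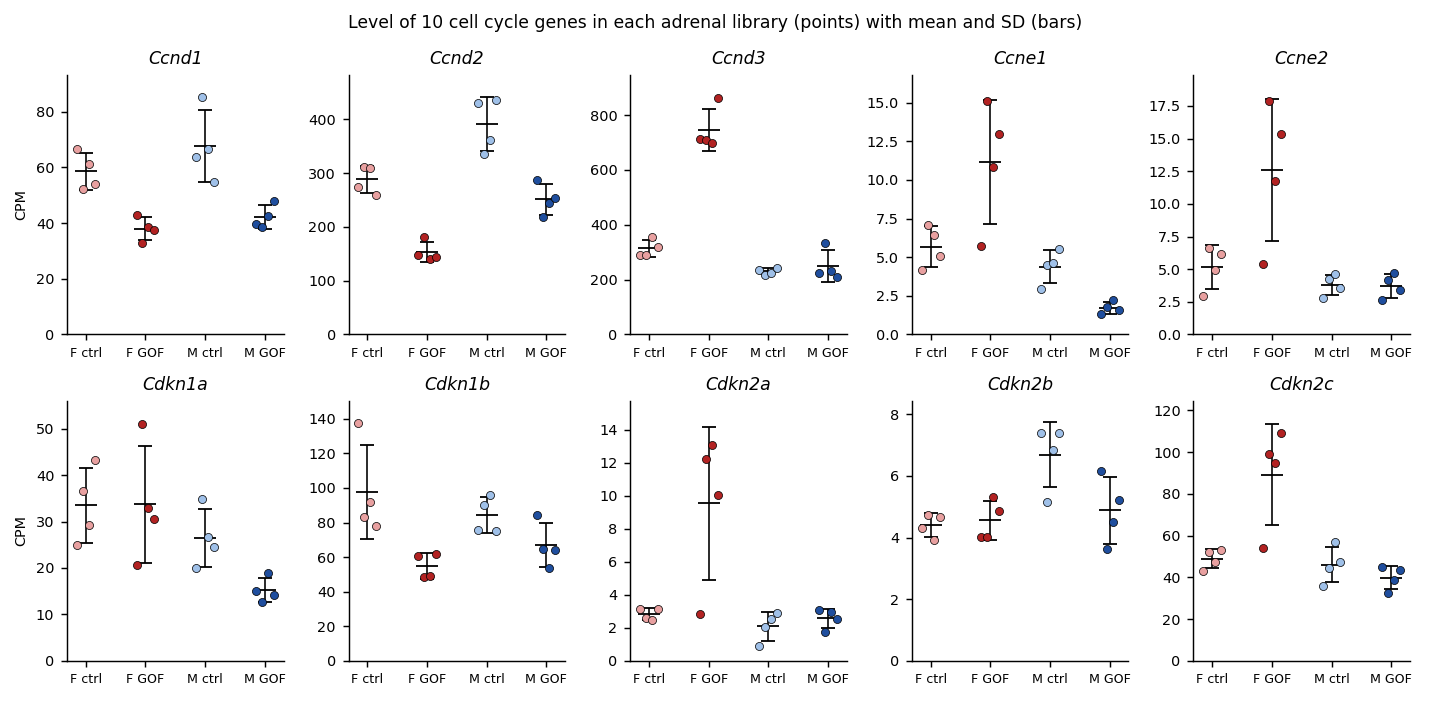
Level of each of the 10 genes in CPM (y axes, linear, from 0) in the 4 libraries of each group (F, female; M, male; ctrl, control); points are libraries, bars the mean ± SD. Ccnd3 in the 4 female GOF libraries lies between 699.6 and 861 CPM, above all other libraries, while 1 female GOF library lies near the controls for Ccne1, Ccne2, Cdkn2a and Cdkn2c.

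Rspo1 GOF was compared with control within each sex to ask how the GOF genotype changed these genes. In females 5 of the 10 genes rose and 3 fell past an adjusted p of 0.05 (edgeR quasi-likelihood), beside 39.6% of all 18214 tested genes called in either direction, 19% higher and 20.6% lower. Ccnd3, Ccne1, Ccne2, Cdkn2a and Cdkn2c rose, and Ccnd1, Ccnd2 and Cdkn1b fell. In males 0 rose and 4 fell (Ccnd1, Ccnd2, Ccne1 and Cdkn1a), beside 36.9% of all genes called, 15.2% higher and 21.8% lower; 0 of the 10 were higher at an unadjusted p under 0.05 in males, and DESeq2 also called 0 higher. The median log2 fold change of the 10 genes was 0.46 in females and -0.40 in males, against 0.05 and 0.01 for all tested genes. The CPM of the 4 GOF and 4 control libraries did not overlap for 5 genes in females (Ccnd1, Ccnd2, Ccnd3, Cdkn1b and Cdkn2c), beside 37.8% of all genes, and for 4 in males (Ccnd1, Ccnd2, Ccne1 and Cdkn1a), beside 33.1%.

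Ccnd3 (ENSMUSG00000034165, chromosome 17, 47505051 to 47599691, plus strand, protein-coding) encodes cyclin D3, the D cyclin best known from lymphocytes and other differentiating cells. In females it stood at 289.6, 290.3, 356 and 318 CPM in the 4 controls and at 714, 709.6, 699.6 and 861 in the 4 GOF libraries. In males it stood at 237, 217, 224 and 243 CPM in controls and at 223, 335, 230.0 and 211 in GOF. The female groups lay far apart, while the male groups overlapped and 1 male GOF library (replicate 2) lay above all male controls. The change on the log2 scale was 1.25 ± 0.131 (SE) in females, adjusted p 6.83e-06, and 0.12 ± 0.129 in males, adjusted p 0.506, (edgeR quasi-likelihood, Benjamini-Hochberg adjusted). The male value was -0.07 without male GOF replicate 2. In that library 6 lymphocyte markers, none at 0, summed to 42.2 CPM, against 1.91 to 8.47 in every other library; their part in its Ccnd3 level was not tested.

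Ccnd2 (ENSMUSG00000000184, chromosome 6, 127125162 to 127152193, minus strand) encodes cyclin D2 and fell in both sexes. In females it went from 275, 311, 309 and 259 CPM in controls to 148, 182, 141 and 145 in GOF. In males it went from 431, 336, 362 and 436 CPM to 288, 218, 245 and 254. No GOF library reached a control of its sex. On the log2 scale the difference was -0.91 ± 0.113 (SE) in females and -0.64 ± 0.113 in males, with adjusted p of 3.06e-05 and 0.000461 (edgeR quasi-likelihood).

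Ccnd1 (ENSMUSG00000070348, chromosome 7, 144929931 to 144939925, minus strand) encodes cyclin D1, whose gene is often named as a target of WNT signalling in tumours. In females it went from 66.7, 52.2, 61.3 and 53.9 CPM in controls to 42.9, 33.0, 38.5 and 37.6 in GOF. In males it went from 63.8, 85.5, 66.7 and 54.9 CPM to 39.7, 38.7, 42.5 and 48.1. Again no GOF library reached a control of its sex. GOF minus control, as log2 fold change, was -0.62 ± 0.127 (SE) in females and -0.68 ± 0.127 in males, with adjusted p of 0.00137 and 0.000732 (edgeR quasi-likelihood). Ccnd1 is 1 of 13 WNT targets listed, of which 7 fell and 4 rose in females, and 9 fell and 2 rose in males. Among those that rose was the WNT feedback gene Axin2, which rose in both sexes, from 48.0 ± 5.23 to 78.0 ± 7.19 CPM (SD, n = 4) in the female groups and from 79.8 ± 9.10 to 160.4 ± 19.9 CPM in the male groups.

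The shift among the D cyclins is seen as shares of their summed FPKM. In female controls Ccnd3 made up 56.3% ± 2.73 of the sum and Ccnd2 37.4% ± 2.69 (SD, n = 4), and in female GOF 84.7% ± 1.92 and 12.7% ± 1.92. In male controls Ccnd3 made up 41.8% ± 1.11 and in male GOF 54.4% ± 7.36. The sum itself went from 454 ± 28.6 to 749.8 ± 66.9 FPKM in females, and stood at 456 ± 40.3 and 408 ± 31.4 FPKM in male controls and male GOF. Ccnd3 thus held more of the sum than Ccnd2 in every library of the female groups and of male GOF, and less than Ccnd2 in every male control.

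**Figure D2:**
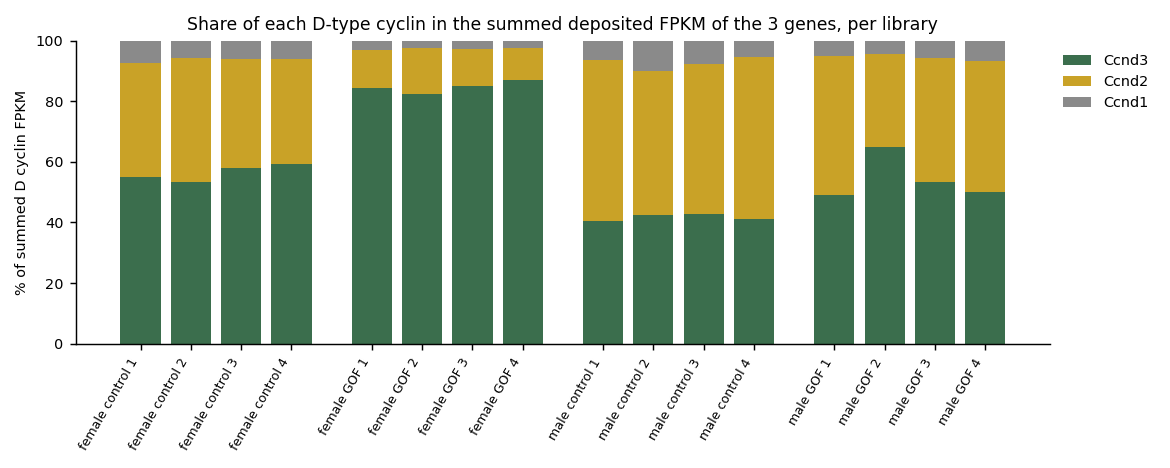
Share of Ccnd1, Ccnd2 and Ccnd3 in the summed deposited FPKM of the 3 genes (y axis, percent) in each of the 16 libraries. Ccnd3 holds 82.5% to 87.2% in female GOF and 53.2% to 59.2% in female controls.

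Ccne1 (ENSMUSG00000002068, chromosome 7, 38097984 to 38107534, minus strand) encodes cyclin E1, a partner of CDK2, and was the gene of the 10 that passed in opposite directions in the sexes. In females it stood at 4.15, 7.06, 6.43 and 5.10 CPM in controls and at 5.75, 15.1, 10.8 and 13.0 in GOF. In males it stood at 2.95, 4.50, 4.60 and 5.51 CPM in controls and at 1.30, 1.80, 2.25 and 1.57 in GOF. The male groups did not overlap, and in females GOF replicate 1 lay within the controls while the other 3 lay above them. The change on the log2 scale was 0.98 ± 0.284 (SE) in females, adjusted p 0.0137, and -1.34 ± 0.292 in males, adjusted p 0.00235 (edgeR quasi-likelihood). The female call was lost without female GOF replicate 2, at 0.75 and an adjusted p of 0.0607, and without female controls 1 and 3 together with male control 2, at 0.88 and 0.107.

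Ccne2 (ENSMUSG00000028212, chromosome 4, 11191351 to 11204779, plus strand) encodes cyclin E2. Its female values were 2.91, 6.64, 4.92 and 6.16 CPM in controls and 5.404, 17.9, 11.7 and 15.3 in GOF. Its male values were 2.80, 4.21, 4.60 and 3.56 CPM in controls and 2.65, 4.197, 4.70 and 3.38 in GOF. The male ranges were nearly the same, and in females GOF replicate 1 again lay among the controls. Expressed as log2 fold change this was 1.29 ± 0.335 (SE) in females, adjusted p 0.00715, and -0.02 ± 0.334 in males, adjusted p 0.967, (edgeR quasi-likelihood). Without female controls 1 and 3 and male control 2 the female value was 0.97 with an adjusted p of 0.0955.

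Cdkn2a (ENSMUSG00000044303, chromosome 4, 89274471 to 89294653, minus strand) encodes 2 unrelated proteins from separate first exons, the CDK4 and CDK6 inhibitor INK4A and the MDM2-binding protein ARF. The deposited counts per gene do not part them. In females it stood at 3.15, 2.58, 2.46 and 3.11 CPM in controls and at 2.86, 12.2, 13.1 and 10.03 in GOF. In males it stood at 0.891, 2.05, 2.53 and 2.91 CPM in controls and at 3.05, 1.77, 2.95 and 2.50 in GOF. Female GOF replicates 2, 3 and 4 lay above all other libraries, and replicate 1 lay within the controls. Its log2 fold change was 1.76 ± 0.408 (SE) in females, adjusted p 0.00347, the highest of the 10 genes, and 0.29 ± 0.403 in males, adjusted p 0.605 (edgeR quasi-likelihood); without female GOF replicate 1 the female value was 2.06.

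Cdkn2b (ENSMUSG00000073802, chromosome 4, 89306299 to 89311039, minus strand), the gene of INK4B, lies upstream of Cdkn2a on the same strand, with 11645 bases between the 2 genes. In females it stood at 4.31, 4.74, 3.91 and 4.66 CPM in controls and at 4.03, 4.03, 5.31 and 4.86 in GOF, so that the groups overlapped. In males it stood at 7.38, 5.15, 6.86 and 7.39 CPM in controls and at 6.17, 3.63, 4.50 and 5.22 in GOF. As log2 fold change, GOF differed from control by 0.05 ± 0.183 (SE) in females and -0.46 ± 0.182 in males, with adjusted p of 0.854 and 0.0623 (edgeR quasi-likelihood). The male value passed in 6 of 28 alternatives, at -0.61 with an adjusted p of 0.0212 without male GOF replicate 1 and at -0.57 with 0.0327 without male control replicate 2.

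Cdkn2c (ENSMUSG00000028551, chromosome 4, 109660876 to 109667189, minus strand), the gene of INK4C, stood at 43.2, 52.2, 47.5 and 52.9 CPM in female controls and at 53.9, 99.0, 94.7 and 109 in female GOF. In males it stood at 36.0, 44.5, 56.8 and 47.2 CPM in controls and at 45.1, 32.5, 38.5 and 43.3 in GOF. The female groups did not overlap, though GOF replicate 1 lay just above the highest control. On the log2 scale GOF differed by 0.87 ± 0.187 (SE) in females, adjusted p 0.00213, and -0.21 ± 0.186 in males, adjusted p 0.399 (edgeR quasi-likelihood).

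Of the Cip/Kip inhibitors, Cdkn1b (ENSMUSG00000003031, chromosome 6, 134920401 to 134925513, plus strand), the gene of KIP1, a brake on CDK2, fell in females. It went from 137, 83.0, 92.0 and 78.2 CPM in controls to 60.6, 48.3, 48.8 and 61.7 in GOF. In males it stood at 75.8, 90.3, 95.7 and 75.2 CPM in controls and 84.5, 64.7, 53.9 and 64.2 in GOF. The female groups did not overlap and the male groups did. Its log2 fold change came to -0.83 ± 0.175 (SE) in females, adjusted p 0.00176, and -0.33 ± 0.174 in males, adjusted p 0.145 (edgeR quasi-likelihood). Without male GOF replicate 1 the male value was -0.49 with an adjusted p of 0.0465.

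Cdkn1a (ENSMUSG00000023067, chromosome 17, 29090976 to 29100727, plus strand), the gene of CIP1 and a classic target of the tumour suppressor p53, fell in males. It went from 19.9, 34.8, 26.8 and 24.5 CPM in male controls to 15.01, 12.8, 18.8 and 14.1 in male GOF. In females it stood at 24.9, 36.5, 29.3 and 43.3 CPM in controls and at 20.7, 50.9, 32.9 and 30.4 in GOF. The male groups did not overlap, and the female groups did. The change on the log2 scale was -0.80 ± 0.250 (SE) in males, adjusted p 0.0207, and 0.01 ± 0.246 in females, adjusted p 0.976 (edgeR quasi-likelihood). The male call was lost without male control replicate 2, the library with the highest liver marker sum, at -0.65 and an adjusted p of 0.0695, and without male GOF replicate 2, at 0.0516. With all libraries, limma on unfiltered log2(FPKM + 1) gave -0.63 with an adjusted p of 0.0854. Without female control 1 and male control 2 the adjusted p was 0.0648, and without female control 3 as well 0.0669 (edgeR).

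Markers of several other compartments moved with the GOF genotype, while of 8 cortex markers 2 rose and 1 fell in each sex. Of all genes tested, 19% were called higher and 20.6% lower in females, and 15.2% and 21.8% in males. All 8 medulla markers fell in both sexes, and their summed level was 4771 to 10840 CPM (female controls), 197 to 768 (female GOF), 7598 to 11450 (male controls) and 395 to 883 (male GOF). Of 6 capsule and fibroblast markers, 5 fell in females and 6 in males, with sums of 634 to 720 CPM (female controls), 170 to 356 (female GOF), 912 to 2445 (male controls) and 370 to 437 (male GOF). Of 3 X-zone markers (the X-zone is the innermost cortex of young mice), 2 fell in each sex. The sum of the 3 was 4912 to 7358 CPM in female controls and 6.61 to 7.97 in female GOF. In males the sums overlapped, at 5.44 to 9.50 CPM in controls and 5.28 to 8.90 in GOF. Up to 2 of the 3 markers were at 0 in a male control library. Of 10 macrophage markers 5 rose and 1 fell in males, where the sum was 406 to 553.4 CPM in controls and 593 to 1750 in GOF. In females 1 of them rose and 1 fell, with sums of 226 to 367 CPM in controls and 309 to 689.9 in GOF. Of 7 endothelium markers 2 rose and 0 fell in males, not above the 36.9% of all genes called in either direction. The 7 markers summed to 408 to 933 CPM in male controls and 843 to 1091 in male GOF. Of 3 skeletal muscle markers tested 2 fell in males, where the sum was 66.6 CPM in male control replicate 2 and at most 1.93 in every other male library. Adipocyte markers fell for 5 of 6 in females and 6 of 6 in males, with sums of 998 to 1514 CPM (female controls), 337 to 611 (female GOF), 1145 to 2992 (male controls) and 298 to 398 (male GOF). Of 4 zona glomerulosa markers, of the outer cortex, 2 fell in females and 4 in males, with sums of 721 to 788 CPM, 344 to 509, 733 to 1171 and 247 to 368 in the same order. Liver markers passed as lower for 1 of 8 in females, where the sum was 114.5 to 168 CPM in controls and 15.1 to 42.7 in GOF, and for 8 of 8 in males, where it was 182 to 9031 CPM in controls and 8.09 to 81.6 in GOF. Of 6 erythroid markers 3 rose in females, though their sum was 289.1 to 991 CPM in controls and 417 to 565 in GOF, and 3 fell in males, with sums of 1068 to 2044 and 355 to 635 CPM. No medulla, capsule, adipocyte or zona glomerulosa marker was at 0 in any library. In bulk tissue fewer cells of a type and less RNA per cell cannot be told apart, and the part of these compartments in the changes above was not tested.

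**Figure D3:**
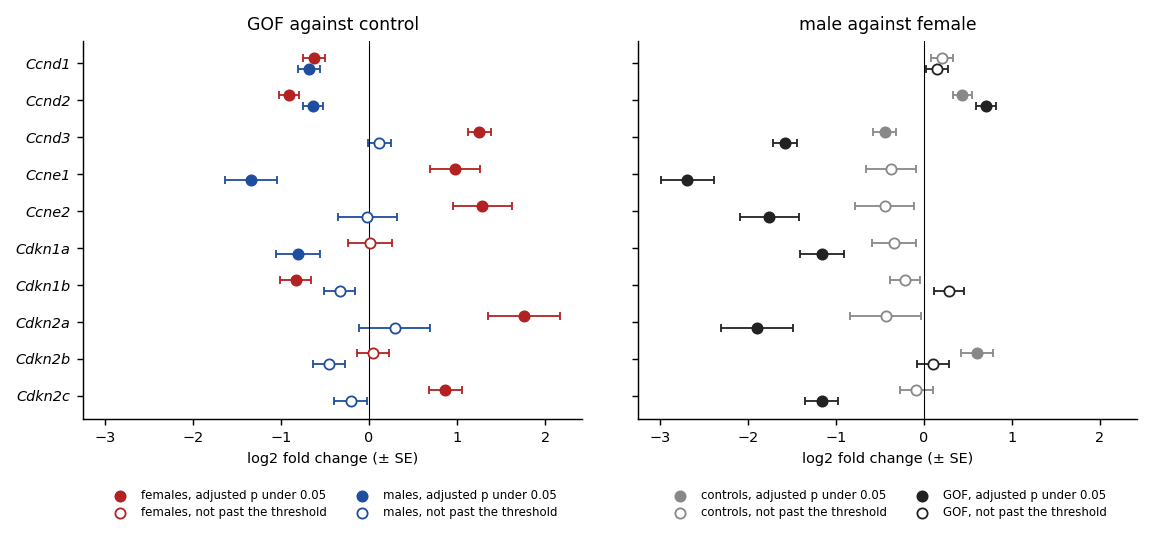
Log2 fold change (x axes) ± SE of each gene for GOF against control in females and males (left) and for males against females in controls and GOF (right); filled points passed an adjusted p of 0.05 (edgeR quasi-likelihood). Ccnd1 and Ccnd2 lie left of 0 in both sexes on the left, and Ccne1 lies at 0.98 in females and -1.34 in males.

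Whether the response differed between the sexes was tested with the interaction of sex and genotype. It passed for 3 of the 10 genes, all with a lower response in males, beside 4.21% of all genes (1.59% higher, 2.61% lower). The difference of log2 fold changes, males minus females, was -1.13 ± 0.182 (SE) for Ccnd3, adjusted p 0.00387, -2.32 ± 0.408 for Ccne1, adjusted p 0.00605, and -1.08 ± 0.264 for Cdkn2c, adjusted p 0.0342 (edgeR quasi-likelihood). Cdkn2c lost its call in 19 of 27 alternatives, among them without any 1 of 12 of the 16 libraries, with an adjusted p of 0.0915 without female control 1 and male control 2 and of 0.213 without female control 3 as well. Without all 3 of these libraries Ccne1 was at -2.21 with an adjusted p of 0.0611, so that Ccnd3 alone passed. Ccne2 (-1.31, adjusted p 0.132) and Cdkn2a (-1.46, adjusted p 0.164) did not pass (edgeR quasi-likelihood), but both did without female GOF replicate 1, at -1.56 with 0.0355 and -1.77 with 0.0321. For Ccnd1, Ccnd2, Cdkn1a, Cdkn1b and Cdkn2b no difference between the sexes was shown: their differences were -0.06 ± 0.179, 0.27 ± 0.159, -0.81 ± 0.350, 0.50 ± 0.246 and -0.50 ± 0.258 (SE).

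Males were compared with females within each genotype to ask where the sexes stood apart. In controls 3 of the 10 genes passed, beside 23.4% of all genes (13.5% higher and 9.89% lower in males). Ccnd2 and Cdkn2b were higher in males, with log2 fold changes of 0.44 ± 0.113 (SE) and 0.60 ± 0.183 and adjusted p of 0.0119 and 0.0277 (edgeR quasi-likelihood). Ccnd3 was lower in males, at -0.45 ± 0.129 with an adjusted p of 0.0223. For each of these 3 genes the 4 male and 4 female controls did not overlap, as for 25.3% of all genes. The Ccnd3 call was lost without female control 3, male control 2 or male control 3, at adjusted p of 0.0784, 0.0572 and 0.0527, and the Cdkn2b call without female control 1 or 3 or male control 1, 3 or 4, at 0.0549 to 0.0865. Without female control 1 and male control 2 Ccnd3 was at an adjusted p of 0.0595, and without female control 3 as well Ccnd3 was at -0.38 with 0.207 and Cdkn2b at 0.61 with 0.136. With no filter on low counts Cdkn2b was at 0.57 with 0.103. Markers moved with sex too: in controls 5 of 6 capsule, 7 of 10 macrophage and 6 of 8 liver markers were higher in males, and 2 of 3 X-zone markers lower. Their summed levels are given above for capsule, X-zone and liver; macrophage markers summed to 226 to 367 CPM in female controls and to 406 to 553.4 CPM in male controls.

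In GOF 7 of the 10 genes passed, beside 29.6% of all genes (13.3% higher and 16.3% lower in males). Ccnd2 was higher in males, at 0.71 ± 0.113 (SE), adjusted p 0.000338. Ccnd3, Ccne1, Ccne2, Cdkn1a, Cdkn2a and Cdkn2c were lower, from -1.15 ± 0.251 for Cdkn1a (adjusted p 0.00311) to -2.69 ± 0.303 for Ccne1 (adjusted p 2.13e-05), each tested in edgeR. The 4 and 4 libraries did not overlap for 6 of these 7, all but Cdkn2a, beside 29.1% of all genes. Ccne1 was 6.45-fold and Ccnd3 2.99-fold lower in male than in female GOF. In GOF 5 of 6 capsule, 7 of 10 macrophage and 6 of 7 endothelium markers were higher in males, while 4 of 8 cortex markers and 3 of 6 erythroid markers were lower and 2 of 8 cortex markers higher. Macrophage markers summed to 309 to 689.9 CPM in females and 593 to 1750 in males, and endothelium markers to 609 to 676 and 843 to 1091 CPM. The part of these markers in the sex differences of the 10 genes was not tested. The comparisons within controls and within GOF each share libraries with those of genotype above.

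Sample titles carry numbers in 4 separate ranges, which the labels do not explain. The first range holds 1 female GOF and 1 female control, replicate 1 of each, beside 3 male controls and 2 male GOF. The second holds only females, the third 1 female GOF and the fourth only males. Sex differences fitted with the range as a covariate thus hang on the first range, with 1 library per female group. Its female GOF library lay within the controls for Ccne1, Ccne2 and Cdkn2a, and its female control had the highest kidney tubule markers. The cause of calls lost with this covariate was not tested. With the range as a covariate, the sex difference in GOF still passed for Ccnd2 (0.71), Ccnd3 (-1.39) and Ccne1 (-2.15), and no longer for Ccne2 (-0.74, adjusted p 0.221), Cdkn1a (-0.67, 0.218), Cdkn2a (-1.44, 0.185) and Cdkn2c (-0.70, 0.0747), again in edgeR. In controls Ccnd2 (0.50, adjusted p 0.0892), Ccnd3 (-0.35, 0.234) and Cdkn2b (0.67, 0.156) no longer passed with it. Within the first range Ccnd3 stood at 714 CPM in the female GOF library and at 223 and 335 in the male GOF libraries, Ccne1 at 5.75 against 1.30 and 1.80, and Cdkn2a at 2.86 against 3.05 and 1.77. The GOF against control calls were the same 8 in females and the same 4 in males with the covariate.

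The other genes of the pathway were counted over whole lists. Of 24 further G1 to S genes (kinases, pocket proteins, E2F factors and their partners), 14 rose and 0 fell in females, beside 19% higher and 20.6% lower of all genes, and 4 rose and 0 fell in males, where the share that rose is near the 15.2% of all genes. Without female controls 1 and 3 and male control 2, 10 rose in females. Cdk4, the main partner of the D cyclins, rose in both sexes, from 126 ± 4.02 to 219 ± 30.9 CPM (SD, n = 4) in the female groups and from 125 ± 8.30 to 167 ± 5.93 in the male groups. Cdk2, the partner of the E cyclins, rose from 30.4 ± 3.30 to 51.1 ± 4.75 CPM in the female groups and from 26.6 ± 4.06 to 39.7 ± 2.52 in males. Myc, a growth factor-responsive transcription factor that drives G1, rose in both sexes as well, by 0.98 ± 0.177 (SE) in females and 0.75 ± 0.178 in males on the log2 scale. Skp2 and Cks1b, parts of the ubiquitin ligase that removes the KIP1 protein, rose in females by 1.16 ± 0.218 and 1.07 ± 0.145 on the log2 scale, with adjusted p of 0.000755 and 5.66e-05 (edgeR quasi-likelihood). In males neither was among the 4 called. There Skp2 was at 6.95 ± 1.33 CPM in controls and 9.84 ± 2.27 in GOF, and Cks1b at 14.8 ± 1.69 and 15.6 ± 2.58 (SD, n = 4). E2f7 and E2f8, repressor E2F factors made in S phase, rose in females by 1.37 and 1.59.

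The third Cip/Kip gene, Cdkn1c, an imprinted gene of the inhibitor KIP2, stood apart by sex. It was at 221 ± 45.5 CPM in female controls and 44.6 ± 10.8 in male controls, and at 198 ± 20.1 and 40.9 ± 16.4 in female and male GOF (SD, n = 4). The log2 fold change of males against females was -2.31 ± 0.241 (SE) in controls and -2.28 ± 0.241 in GOF, with adjusted p of 1.44e-05 and 1.45e-05 (edgeR quasi-likelihood). It did not pass for GOF against control in either sex, at -0.16 ± 0.229 in females and -0.13 ± 0.231 in males.

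Of 18 S phase genes that E2F factors induce, 18 rose in females, beside 19% of all genes, with a median log2 fold change of 1.15, and 0 in males, beside 15.2%, with a median of 0.14; 0 of 18 had an unadjusted p under 0.05 there by edgeR, and DESeq2 called 0. Without female controls 1 and 3 and male control 2, 14 of the 18 rose in females. The sexes differed before GOF: 11 of the 18 were lower in males than in females in controls, beside 9.89% of all genes, with a median of -0.68, and 18 in GOF, beside 16.3%, with a median of -1.63. With the title number range as a covariate 0 were lower in controls, at a median of -0.23, and 14 in GOF. The highest in females was Tk1, thymidine kinase, which went from 13.5 ± 2.01 to 46.4 ± 21.1 CPM (SD, n = 4). The interaction of sex and genotype passed for 6 of these 18 genes, all with a lower response in males, beside 2.61% of all genes; this count was 3 (without female GOF replicate 4 or male GOF replicate 4) to 13 (without female GOF replicate 1) with 1 library left out, and 0 without female controls 1 and 3 and male control 2. Of 10 proliferation markers 9 rose in females, beside the same 19%, and 0 in males (0 at an unadjusted p under 0.05 by edgeR), and 10 were lower in males than in females in GOF, beside 16.3% of all genes. The interaction passed for 0 of these 10 in edgeR, with 3 at an unadjusted p under 0.05, and DESeq2 called 0, so a sex difference in the response of the markers was not shown. The count of 9 that rose in females was 1 without female control 1, female GOF 2 or female GOF 4, 4 without female GOF 3, 5 without female control 3 or 4, and 0 without female controls 1 and 3 and male control 2, where the median log2 fold change was 1.29 against 1.53. With the title number range as a covariate 4 rose in females, and 0 in place of 10 were lower in males in GOF. These markers summed to 98.5, 184, 161 and 163 CPM in female controls and to 174, 586, 405 and 572 in female GOF. Female GOF replicate 1 thus lay within the controls for this sum as for Ccne1, Ccne2 and Cdkn2a, though its Mki67 (51.5 CPM) lay above the 26.6 to 36.4 of the controls. Its Ccnd3 (714 CPM) lay with the rest of its group. The summed markers were 19.9 to 131 CPM in male controls and 52.7 to 136 in male GOF, and their part in the changes of the 10 genes was not tested.

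Of 18 genes of the p53 pathway, of which Cdkn1a is a classic target, 2 rose and 7 fell in females, beside 19% higher and 20.6% lower of all genes. In males 3 rose and 3 fell, near the shares of all genes, 15.2% higher and 21.8% lower. The largest change was that of Perp, a desmosome gene, at -2.37 ± 0.399 (SE) in females and -2.75 ± 0.399 in males. Sesn2 fell by 0.93 ± 0.239 on the log2 scale in females, and Phlda3 by 1.90 ± 0.336 in males. Trp53 itself rose by 0.66 ± 0.0699 (SE) in females and 0.45 ± 0.0698 in males on the log2 scale, and Bax, an apoptosis gene, rose by 0.63 ± 0.0807 and 0.49 ± 0.0805. Btg2, an antiproliferative gene, fell by 0.87 and 0.54. The counts of the 13 WNT targets, given above with Ccnd1, stand beside 19% higher and 20.6% lower of all genes in females and 15.2% and 21.8% in males. Lgr5, a receptor for R-spondins, had the largest fall of these 13 in both sexes, with log2 fold changes of -3.68 ± 0.354 (SE) in females and -4.08 ± 0.357 in males.

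**Figure D4:**
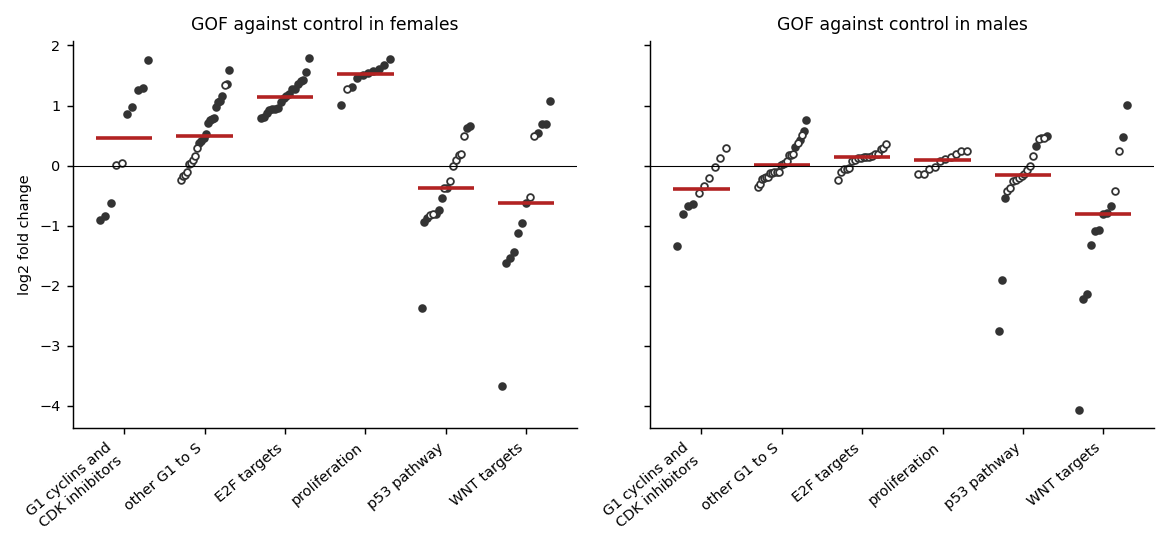
Log2 fold change (y axis) of GOF against control in females (left) and males (right) for the 10 genes and for the 5 lists of related genes; each point is a gene, filled where it passed an adjusted p of 0.05 (edgeR quasi-likelihood), and red bars are medians. The 18 E2F target genes have a median of 1.15 in females and 0.14 in males.

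Genes with the most similar patterns were found by Pearson's r of log2 CPM over the 16 libraries among 13601 other genes, as a description in which group differences and shared libraries take part. Nearest to Ccne2 were Mad2l1 (0.98), a spindle checkpoint gene, Prim1 (0.976), a DNA primase subunit, and Cip2a (0.971). Nearest to Cdkn2c were Rbl1 (0.973), a pocket protein related to the retinoblastoma protein, Trim59 (0.97) and Chtf18 (0.969), and nearest to Cdkn2a were Spc24 (0.948), a kinetochore gene, Chtf18 (0.936) and Cenpn (0.929). With each group's mean removed these 9 values were 0.78 to 0.959. The nearest genes were Pde7a and Dnph1 (0.967 each) and Hat1 (0.964) for Ccnd3, C7 (0.97), Gpat3 and Tceal3 for Ccnd2, and Nedd4l (0.942), Perp and Cckar for Ccnd1. For Ccne1 they were Mgat4c (0.942), Dpf1 and Tmem47. For Cdkn1a they were Pcdhgc4 (0.898), Ndc1 and Exoc4, for Cdkn1b Tfcp2l1 (0.914), Cdkl1 and Sel1l3, and for Cdkn2b Wdr35 (0.92), Dusp18 and Kctd21. With group means removed, the values for these 7 genes and their nearest genes were 0.386 (Ccne1 and Tmem47) to 0.865 (Cdkn2b and Wdr35), with 0.48 for Ccne1 and Mgat4c and 0.496 for Ccnd2 and Tceal3.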

How the data were processed

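Per the labels' protocols, total RNA of adrenal glands was purified on columns and made into NEBNext Ultra libraries, which were sequenced as paired reads. The deposited counts are whole reads per Ensembl gene, not normalized; the deposited FPKM values are scaled by the authors to gene length and library total. The submitters' processing notes name Bowtie2 2.2.3, TopHat2 2.0.12, HTSeq 0.6.1 and DESeq 1.18.0; the build and strand setting are not given in the sources used here. If strand was not used, reads of Ccnd1, Ccnd2, Ccnd3, Ccne2 and Cdkn1a cannot be told apart from those of genes overlapping them on the other strand. Symbols and coordinates are from GENCODE M21 (GRCm38), which held 54723 of the 54838 identifiers, and promoters from RefSeq.

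Counts were tested in R 4.3.3 with edgeR 4.0.16 (quasi-likelihood, robust), 1 model over all 16 libraries, TMM factors (0.945 to 1.1) and filterByExpr. Benjamini-Hochberg adjustment ran over 18214 genes, with a threshold of 0.05; tests are two-sided, and a standard error is the log2 fold change divided by the root of F. Replicates are numbered by accession, and all 24 pairs of libraries within groups differed beyond counting noise (lowest chi-square over degrees of freedom 29.5). The members and lists were chosen with earlier results of these data known. Besides the 10 genes, up to 4 called members per list and contrast with the largest change and the 3 nearest genes per member were to be named; Trp53, and the female values of Cdk4, Cdk2, Myc, Bax and Axin2 and the male value of Axin2, were added after their values were seen. Alternatives used limma 3.58.1 on log2 of FPKM plus 1 or 0.1 (filtered at a mean of 0.5 FPKM, or unfiltered), DESeq2 1.42.0, RLE or upper-quartile factors, no count filter, a minimum of 10 counts per library, fits of the compared groups alone, title number ranges, and fewer libraries; their use for the lists was added after the data were seen. On simulated counts of 18214 genes for GOF against control in females, with 200 changed 1.5-fold to 4-fold, 53% were recovered and 4.5% of calls were unchanged genes.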

Additional observations from a re-analysis of the deposited data

Results flagged for a closer look

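Ccnd3 stood apart in 1 library of each GOF group. In female GOF replicate 4 it was at 861 CPM, against 700 to 714 CPM in the other 3, and in male GOF replicate 2 at 335 CPM, against 211 to 230 CPM. Each gap to the next library was 0.909 and 0.848 of the group's range, above the 95% critical value of Dixon's test for 4 samples. Chance alone passes it in about 1 of 20 groups, and 40 groups were looked at.

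The response to GOF differed between the sexes by the interaction test of edgeR for 3 genes. The log2 fold change in males minus that in females was -1.13 for Ccnd3, with 4 of 4 female GOF libraries above every female control. It was -2.32 for Ccne1, with 3 of 4 female GOF libraries above and 4 of 4 male GOF libraries below every control of their sex. It was -1.08 for Cdkn2c, with 4 of 4 female GOF libraries above every female control, the lowest at 53.9 against 52.9 CPM, and this call was lost in 19 of 27 alternatives, 12 of them with 1 library left out.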

How the results depend on the processing

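No paired analysis was possible because the labels give no replicate numbers that the groups share. Over 10 genes, 5 comparisons and up to 28 alternatives, 1286 values kept direction and side of the threshold, 47 lost and 9 gained a call, and 48 changed sign, in each case where the value was not called; the cause was not tested. In GOF against control in males the median log2 fold change of all genes was 0.104 and 0.119 in the filtered FPKM fits with pseudocounts of 1 and 0.1, against 0.01 in edgeR; in females it was 0.0947 and 0.11, against 0.05.

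Changes of sign were as follows. For GOF against control in females, Cdkn1a (0.01) was -0.00457 with RLE and -0.0218 with upper-quartile factors, -0.00487 in DESeq2, -0.00624 with no filter, -0.0414 with at least 10 counts in every library, -0.0133 with only the groups compared, -0.109 without female control 1 and male control 2, -0.243 without female control 3 as well, and -0.299 to 0.189 with each library left out; Cdkn2b was -0.00784 with at least 10 counts, -0.0484 without the 3 controls, and -0.0708 to 0.105 with each library left out. For GOF against control in males, Ccne2 was 0.057 with upper-quartile factors, 0.00325 with no filter, 0.0631 with log2(FPKM + 1) (also unfiltered), 0.0826 with a pseudocount of 0.1, 0.0287 and 0.0256 without the 2 and the 3 controls, and -0.168 to 0.0893 with each library left out; Ccnd3 was -0.0741 to 0.174 with each left out. For males against females in controls, the title ranges gave 0.174 for Ccne1, 0.511 for Ccne2, 0.231 for Cdkn1a and 0.281 for Cdkn2c (-0.201 to 0.0157 with each library left out), and Cdkn1b was 0.0278 without the 3 controls; in GOF, Cdkn2b was -0.0265 to 0.23 with each left out. The interaction of Ccnd1 was 0.0506 with upper-quartile factors, 0.0098 with log2(FPKM + 1) (also unfiltered), 0.0132 with a pseudocount of 0.1, 0.0074 without the 2 controls, and -0.146 to 0.0749 with each library left out.

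The count of called genes in females (7218) was 4554 without female controls 1 and 3 and male control 2, which left 3 of the 10 genes higher in place of 5, and 5709 (without female GOF 4) to 7466 with each library left out; in males (6724) it was 5215 to 6711. Between the sexes it was 1311 with the title ranges, 1648 without the 3 controls and 2650 (without female control 3) to 4881 in controls (4266), and 1336 with the title ranges and 4243 to 5660 in GOF (5394). For the interaction (766) it was 1434 in DESeq2, 408 with no filter, 407 with unfiltered log2(FPKM + 1), 440 with the title ranges, 448 without the 2 controls, 175 without the 3, and 377 (without female control 3) to 953 with each left out. Counts per library were 29 to 535 for Cdkn2a and 49 to 660 for Ccne1, whose standard errors for GOF against control were 0.284 to 0.408, but Cdkn2b, at 127 to 272 counts, had 0.182 and 0.183.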
